A study of Mus musculus with 4 samples.

Results

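The nuclear-encoded subunits of the oxidative phosphorylation machinery were followed in mouse alveolar epithelial type II cells (AEC2), which make surfactant in the alveoli of the lung. The genes were chosen by name: a symbol that starts with Nduf, Uqcr, Atp5 or Cox4 to Cox8, or that equals Sdha, Sdhb, Sdhc, Sdhd or Cyc1. Of 18194 genes with a probe set assigned to a single symbol, 91 had such a name, and 84 of these had a mean log2 signal of at least 7 over the 4 arrays and are the members described here. In all, 9279 genes passed that level. The 84 members were read by 169 probe sets, with 36 members on 1 probe set and 48 on several, which were averaged.

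Of the 4 Affymetrix arrays, 1 came from wild-type untreated mice, 1 from TLR4-/- untreated mice, 1 from wild-type mice 4 days after bleomycin and 1 from TLR4-/- mice 4 days after bleomycin. Tlr4 encodes a receptor of innate immunity, and bleomycin is a DNA-damaging drug used to injure the lung in mice. Each array was hybridised with RNA of flow-sorted cells pooled from 4 to 5 lungs. The strain, age and sex of the mice, the bleomycin dose and the nature of the Tlr4 allele are not given in the sources used here. There was 1 array per group, so a difference between single arrays has no replicate check and no test. A limma model with treatment and genotype as additive terms was fitted over all 9279 genes, which compares 2 bleomycin arrays with 2 untreated arrays and counts any difference between the responses of the genotypes as error. In that fit the typical SD of a difference between single arrays was 0.23 on the log2 scale, and the standard error (SE) of a member's bleomycin difference ran from 0.15 to 0.21.

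Oxidative phosphorylation passes electrons from NADH and succinate to oxygen through complexes I to IV of the inner mitochondrial membrane, and complex V, the ATP synthase, uses the proton gradient this builds to make ATP. A few subunits of complexes I, III, IV and V are made from mitochondrial DNA, while the remaining ones, and all of complex II, are encoded in the nucleus. Type II cells are rich in mitochondria and spend energy on making and secreting surfactant. Complex IV also has subunits that come in a general form and a form found mainly in certain tissues.

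Motifs of transcription factors known for many of these genes were searched in the RefSeq promoter windows of build GRCm38.p6, which run from 250 bases before to 50 bases after a start. Entries were found for 69 of the 84 members, with 74 windows. The letters of NRF1, which are GCGCA, any base and GCGC, were in 16 of the 74 windows (21.6%), against 4.60% of all 32851 windows. Those of the ETS factor GABPA, CCGGAAG, were in 18 (24.3%), against 8.86%, and a core of the YY1 motif, AAGATGG, was in 10 (13.5%), against 6.34%. Both strands were read, and none of the 3 motifs contains another, though the end of the ETS letters can overlap the start of the YY1 core. Among windows of protein-coding genes the shares were 6.38%, 11.6% and 6.24% in the same order. Below are the 150 bases before the start, 5′ to 3′ on the strand of the gene, of 4 members that rose after bleomycin and hold a match there, with the match in capitals, and of Cox6b2, the member with the largest rise, whose window held none of the 3 motifs. Sdhd lies at chr9:50603850-50603999 on the minus strand and holds the NRF1 letters and, on the other strand, the ETS letters. Ndufaf4 lies at chr4:24897933-24898082 on the plus strand and Ndufa8 at chr2:36049339-36049488 on the minus strand, each with the NRF1 letters, read on the other strand in Ndufa8. Ndufs3 lies at chr2:90904722-90904871 on the minus strand with the ETS letters, and Cox6b2 at chr7:4753095-4753244 on the minus strand.
Sdhd: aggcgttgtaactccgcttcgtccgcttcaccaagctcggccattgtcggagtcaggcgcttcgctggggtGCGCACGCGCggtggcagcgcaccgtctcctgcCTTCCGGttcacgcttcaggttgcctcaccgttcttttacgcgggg
Ndufaf4: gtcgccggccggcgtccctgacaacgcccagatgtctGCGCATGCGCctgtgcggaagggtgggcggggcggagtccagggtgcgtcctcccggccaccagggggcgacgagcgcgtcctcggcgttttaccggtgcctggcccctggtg
Ndufa8: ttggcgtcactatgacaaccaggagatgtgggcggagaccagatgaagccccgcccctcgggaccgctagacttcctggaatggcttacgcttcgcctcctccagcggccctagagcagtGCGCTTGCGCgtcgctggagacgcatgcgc
Ndufs3: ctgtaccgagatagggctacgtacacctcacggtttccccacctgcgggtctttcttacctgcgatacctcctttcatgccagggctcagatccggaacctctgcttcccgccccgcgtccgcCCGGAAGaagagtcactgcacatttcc
Cox6b2: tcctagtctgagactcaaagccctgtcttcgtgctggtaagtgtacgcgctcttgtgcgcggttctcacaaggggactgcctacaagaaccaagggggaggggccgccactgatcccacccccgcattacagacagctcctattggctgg
A match describes the letters only. Windows with the NRF1 or the ETS letters belonged to 8 of the 13 members that rose (61.5%) and made up 22 of the 61 windows of the other members (36.1%). Among all windows the share was 12.6%, and among those of protein-coding genes 16.7%. The YY1 core went the other way, in 1 of the 13 (7.69%) and 9 of the 61 (14.8%). These differences were not tested.

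Tlr4 itself was checked first. One of its 4 probe sets read 8.87 on the wild-type untreated array, 7.24 on the TLR4-/- untreated array, 9.07 on the wild-type day 4 array and 6.39 on the TLR4-/- day 4 array, a TLR4-/- minus wild type difference of -1.63 untreated and -2.68 at day 4, while 2 other probe sets were higher in TLR4-/- by 0.41 to 0.66 and the remaining probe set was dim on all arrays. The sources used here do not say which part of Tlr4 is altered in TLR4-/- mice, so the probe sets could not be placed against it. Markers of the labelled cell type were high on every array: Sftpc, the surfactant protein C gene, was between 14.02 and 14.06 on all 4 arrays, and the mean log2 signal of 13 type II markers was 12.84 in wild type and 12.77 in TLR4-/- untreated, and 12.72 and 12.54 at day 4. Macrophage and leukocyte markers were also present, at a mean of 7.34 and 7.43 untreated and 8.67 and 8.90 at day 4. Array medians ran from 6.93 to 6.98. In the upper range the wild-type untreated array was the lowest. Its 75th percentile was 8.47, against 8.54 to 8.58 on the others, and its 95th was 10.73, against 10.79 to 10.83.

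The members were higher after bleomycin in both genotypes. The median member was higher by 0.23 on the log2 scale in the limma fit, against 0.04 over all 9279 genes. In that fit 72 of the 84 were above 0 (85.7%), against 55.8% of all genes. The differences ran from -0.38 (Cox4i2) to 1.70 (Cox6b2). In wild type the median difference was 0.19, with 72 members above 0, or 85.7% against 59.5% of all genes. In TLR4-/- it was 0.29, with 70 above 0, or 83.3% against 51.6%. The share above 0 in both genotypes was 77.4% (65 members), against 38.8% of all genes, and 7 members were below 0 in both, against 27.7% of all genes. With quantile normalization the median difference in wild type was 0.13, against 0.01 over all genes, with 65 members above 0. In TLR4-/- it was then 0.27, against -0.003, with 71 above 0.

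Both bleomycin arrays lay above both untreated arrays for 54 members (64.3%), against 30.4% of all genes. They lay below both untreated arrays for 6 members (7.14%), against 21.7% of all genes. For the other 24 members the groups overlapped. The 57 members with a mean log2 signal of 10 or more had a median difference of 0.25, and the 1321 genes at that level a median of 0.05. Across the members, the wild-type and TLR4-/- differences, which share no array, had a Pearson r of 0.69 and a Spearman rho of 0.55 (n = 84 genes), and 0.58 and 0.54 without Cox6b2. Over all 9279 genes the values were 0.60 and 0.50.

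**Figure D1:**
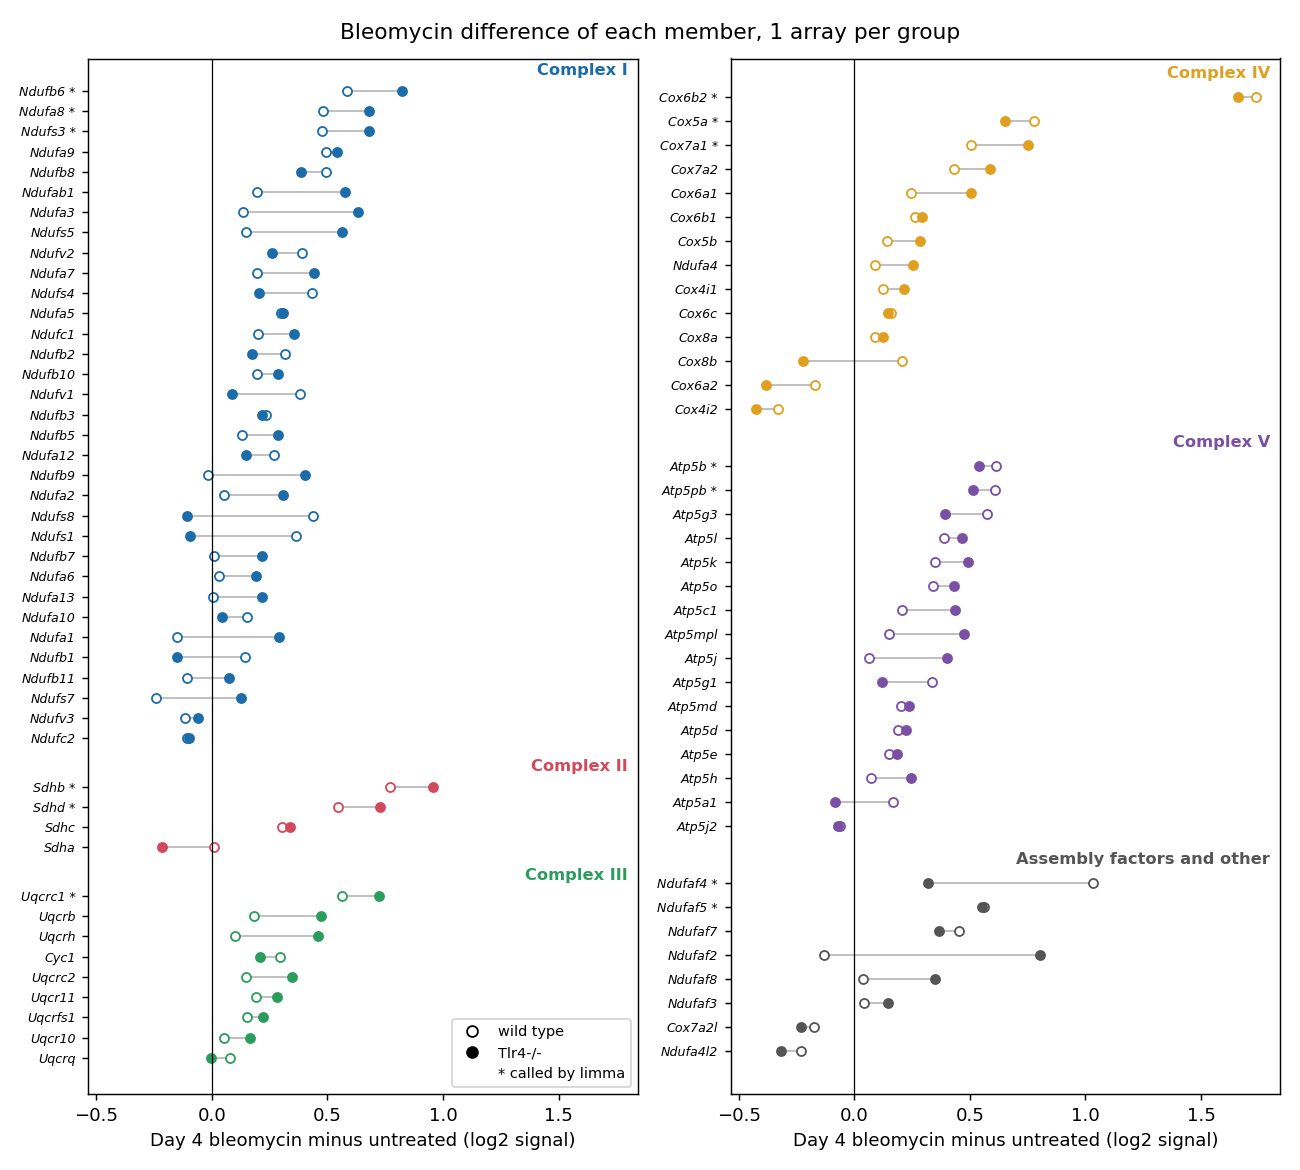
Each line is a member, grouped by complex and ordered by its limma difference, and the x axis is the log2 signal at day 4 after bleomycin minus that of untreated cells. Open points are wild type, filled points TLR4-/-, each the difference of 2 single arrays, and an asterisk marks the members called by limma. Most points lie to the right of 0, and Cox6b2 stands apart at 1.74 and 1.66.

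By the limma fit with Benjamini-Hochberg adjustment over all genes, 13 of the 84 members rose (15.5%) at an adjusted p under 0.05, against 6.54% of all genes. No member fell, against 2.19% of all genes. At an unadjusted p under 0.05, 24 members were higher, against 15.6% of all genes, and 1 was lower, against 8.04%. The number of members that rose depended strongly on the processing. It was 2 with the brightest probe set of each gene (2.38%, against 2.42% of all genes). With the arrays centred on their medians it was 4 (4.76%, against 3.76%), and with a trended, robust variance prior 20 (23.8%, against 7.29%). Leaving out an array also meant leaving out the genotype term, since 3 arrays leave no residual degree of freedom for both terms, so these fits change the arrays and the model together. They gave 0 members without the wild-type day 4 array and 0 without the TLR4-/- day 4 array, each setting 1 bleomycin array against 2 untreated arrays, with 17 and 7 members then higher at an unadjusted p under 0.05. Without the wild-type untreated array they gave 3. Cox6b2 and Sdhb were called in each of the 7 settings that kept all arrays and the threshold, and the other 11 members lost their call in at least 1 of them. The median difference ran from 0.19 to 0.24 over those 7 settings.

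**Figure D2:**
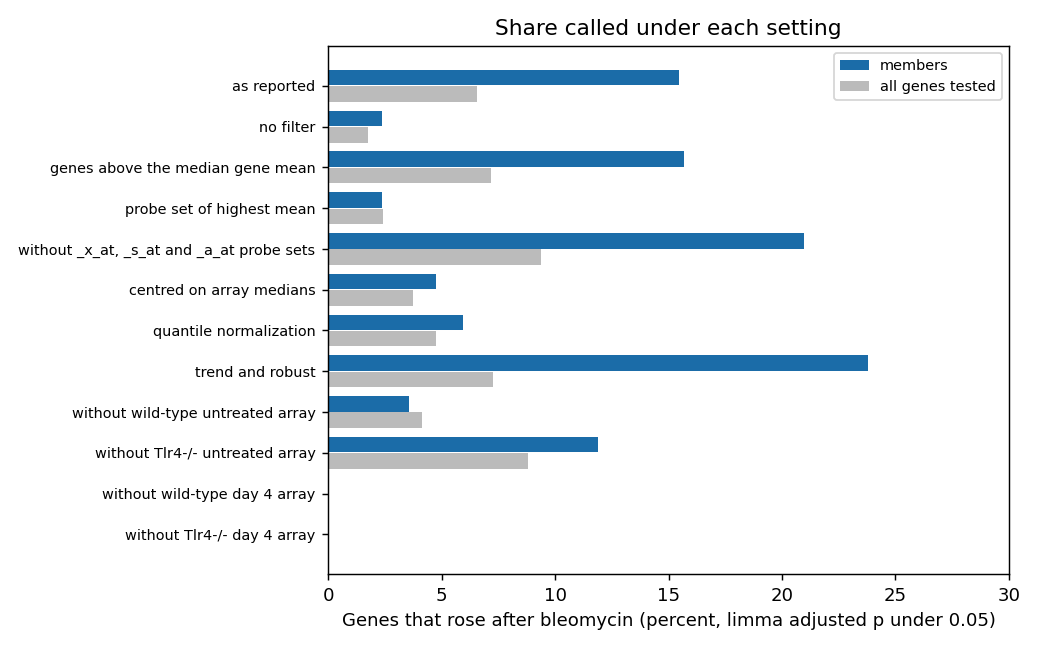
Bars give the percent of genes that rose after bleomycin in the limma fit (adjusted p under 0.05), for the members and for all genes tested, under each processing setting. As reported the shares were 15.5% and 6.54%, and they ran down to 0 for both when either day 4 array was left out together with the genotype term.

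Markers of some other cells moved in the same direction as the members, and those of others did not. Of 13 tested macrophage and leukocyte markers, 12 rose, with a median difference of 1.53, and 1 of 3 neutrophil markers rose, with a median of 0.19. All 3 tested mesothelial markers and 1 of 2 fibroblast markers (Col1a1) rose, with medians of 1.48 and 1.04. None of the 13 type II markers rose and 2 fell (Lgi3 and Hc), with a median of -0.09, and 2 of 7 club and ciliated cell markers fell, with a median of -0.21. The single tested endothelial marker and the single tested muscle marker were not called, at 0.32 and -0.43. Eif2s3y, a Y-linked gene, was higher after bleomycin by 1.86 to 2.21 over its 2 probe sets and both genotypes, and the 3 probe sets of Xist, transcribed from the inactive X chromosome, were lower by 0.33 to 1.69. The part of other cells and of the sex of the pooled mice in the members' differences was not tested. In such pools, fewer cells of a type and less RNA per cell cannot be told apart.

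Complex I takes electrons from NADH. Its 33 members had a median difference of 0.23, with 28 above 0, and the limma fit called 3 as higher and none as lower. Ndufb6, an accessory subunit of the membrane arm, read 10.45 in wild type and 10.59 in TLR4-/- untreated, and 11.04 and 11.42 at day 4, so that both bleomycin arrays were above both untreated ones. It rose by 0.70 ± 0.16 (SE), or 1.63-fold, with a limma adjusted p of 0.0190. Ndufa8, an accessory subunit on the intermembrane space side, read 10.24 and 10.11 untreated and 10.72 and 10.79 at day 4.

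Ndufs3, a core subunit of the arm that reaches into the matrix, had much the same pattern, with 10.16 and 10.17 untreated and 10.64 and 10.84 at day 4. Both rose by 0.58 ± 0.16, higher in 2 of 2 genotypes, with limma adjusted p of 0.0433 (Ndufa8) and 0.0436 (Ndufs3). Ndufa9, an accessory subunit of the matrix arm, was higher by 0.52 ± 0.15 and missed the threshold (adjusted p 0.0616). At the other end, Ndufc2 (-0.10) and Ndufv3 (-0.09) were lower in both genotypes and were not called. Ndufa13, the complex I member of highest mean signal, was higher by 0.11 (adjusted p 0.730).

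The core subunits form the catalytic part of the enzyme, and their median differed by genotype in a way that was not tested and that not all of them shared. In wild type their median bleomycin difference was 0.39 over 6 genes, and in TLR4-/- it was 0.11. The 27 accessory subunits had medians of 0.15 in wild type and 0.29 in TLR4-/-. Among the 6 core genes, the bleomycin difference of TLR4-/- was below that of wild type in 4. It was above that of wild type in 2, Ndufs3 (by 0.20) and Ndufs7 (by 0.37). Ndufs8, an iron-sulfur subunit, read 9.53 in wild type and 10.17 in TLR4-/- untreated, and 9.97 and 10.06 at day 4. Ndufs1, the largest subunit with iron-sulfur clusters, read 8.44 and 8.88 untreated and 8.81 and 8.79 at day 4. In both genes the wild-type untreated array was the lowest and the other 3 lay close together. Ndufv1, the flavin subunit that binds NADH, was likewise lowest on the wild-type untreated array, at 10.16 against 10.54 to 10.71 on the others.

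Complex II oxidises succinate and is also an enzyme of the citric acid cycle. Of its 4 subunits 2 rose. Sdhb, the iron-sulfur subunit, read 9.76 in wild type and 9.77 in TLR4-/- untreated, and 10.53 and 10.73 at day 4. It rose by 0.86 ± 0.15 (SE), or 1.82-fold, with a limma adjusted p of 0.00608, and the untreated arrays differed by only 0.01. Sdhd, a membrane anchor, read 9.99 and 10.06 untreated and 10.54 and 10.79 at day 4, and rose by 0.64 ± 0.15 (limma adjusted p 0.0290). Sdhc, the other anchor, was higher by 0.32 and was not called (adjusted p 0.235). It had the highest mean signal of complex II with all probe sets averaged, although 2 probe sets of Sdha were brighter. Sdha, the flavoprotein that binds succinate, averaged over its 4 probe sets, was at 8.03 in wild type and 8.42 in TLR4-/- untreated and 8.04 and 8.20 at day 4. Its bleomycin difference was -0.10 (adjusted p 0.758), and its groups overlapped. Its probe sets of mean 11.62 and 11.03 were at -0.06 and 0.22, or 0.08 on average, and those of mean 5.36 and 4.69 at -0.01 and -0.55, so the sign of the gene turned when dim probe sets were set aside.

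Complex III passes electrons from quinol to cytochrome c. All 9 members were above 0 in the limma fit, with a median of 0.25, and 1 was called. Uqcrc1, a core protein on the matrix side, read 9.29 in wild type and 9.44 in TLR4-/- untreated, and 9.86 and 10.16 at day 4, and rose by 0.64 ± 0.15 (SE), or 1.56-fold, with a limma adjusted p of 0.0275. Uqcrb was higher by 0.33 and Uqcrh, the hinge protein and the brightest of the complex, by 0.28, neither called. Uqcr10 (0.11) and Uqcrq (0.04) were the lowest. Uqcrq was read by 4 probe sets that disagreed: the probe set of mean log2 signal 11.51 was higher by 0.54, and the other 3, with means of 5.30 to 6.32, ran from -0.40 to 0.12.

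Complex IV reduces oxygen to water. Its 9 general subunits were all above 0, with a median of 0.21, whereas 2 of the 5 isoforms known from particular tissues were above 0. Cox5a, a subunit on the matrix side, read 11.19 in wild type and 11.50 in TLR4-/- untreated, and 11.97 and 12.15 at day 4. It rose by 0.72 ± 0.15 (SE), or 1.64-fold, with a limma adjusted p of 0.0158, and both bleomycin arrays were above both untreated ones. Cox7a2 was higher by 0.51 and missed the threshold (adjusted p 0.0670). Cox6c, the brightest, was higher by 0.15 (adjusted p 0.616).

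Cox6b2, an isoform of subunit 6b known from testis, showed the largest difference of any member. It read 8.93 in wild type and 9.55 in TLR4-/- untreated, and 10.67 and 11.21 at day 4, a rise of 1.70 ± 0.15 (SE), or 3.24-fold, with a limma adjusted p of 0.000101. The rise was 1.74 in wild type and 1.66 in TLR4-/-, so that the smallest gap between a bleomycin and an untreated array was above 1 on the log2 scale. Cox6b1, the general form, was higher by 0.28 and was not called (adjusted p 0.309). A single probe set read Cox6b2, and its neighbour Kmt5c, a histone methyltransferase gene, was higher by 0.03 in wild type and 0.05 in TLR4-/-.

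The other isoforms went different ways. Cox7a1, known from heart and skeletal muscle, read 6.81 in wild type and 7.24 in TLR4-/- untreated, and 7.31 and 7.99 at day 4. It rose by 0.63 ± 0.16 (limma adjusted p 0.0329), although its signal lay near the level rule and the lower bleomycin array was only just above the higher untreated one. Cox4i2, known for its expression in lung, read 8.30 and 8.28 untreated and 7.97 and 7.85 at day 4. It was lower in 2 of 2 genotypes, by 0.38 on average, and was not called (adjusted p 0.160), while its general partner Cox4i1 was higher by 0.17. Cox6a2, a muscle isoform, was at -0.27 and its partner Cox6a1 at 0.38. Cox8b, another muscle isoform, was at -0.01 with wild type and TLR4-/- of opposite sign, and its partner Cox8a at 0.11. Of 6 muscle markers, Myh7 read 10.68 in wild type and 10.71 in TLR4-/- untreated, and 10.33 and 10.20 at day 4, differences of -0.35 and -0.51 that were not called (adjusted p 0.115). The other 5 (Myh6, Myl7, Tnnt2, Actc1 and Nppa) had mean log2 signals of 4.21 to 6.04, and the part of muscle RNA in the values of these isoforms was not tested.

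**Figure D3:**
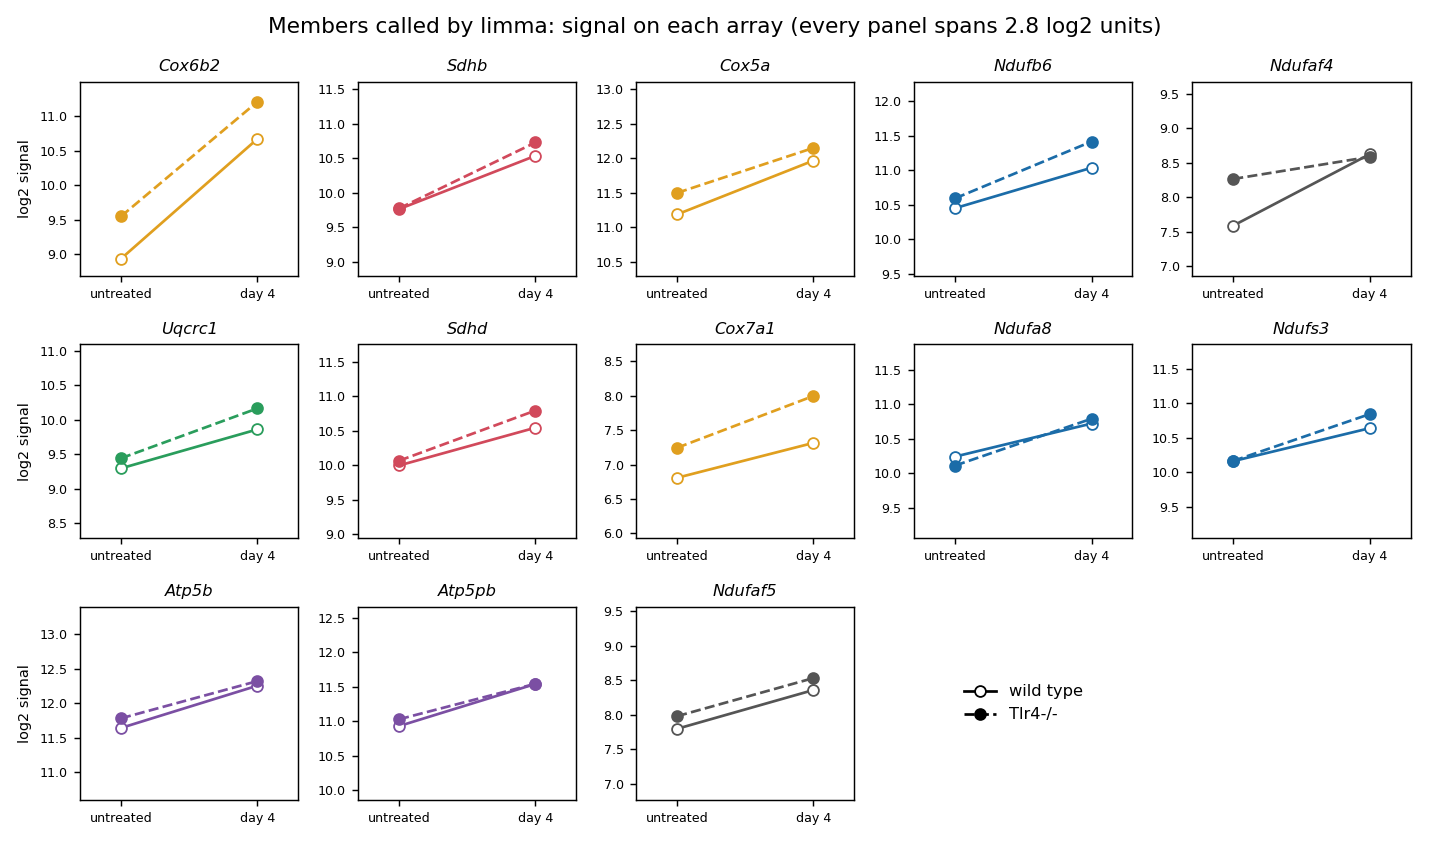
The log2 signal of the 13 members that rose in the limma fit is shown on each of the 4 arrays, 1 point per array. In each of the 13 the lower bleomycin array lies above the higher untreated array, with the widest gap in Cox6b2 and narrow gaps in Cox7a1 and Ndufaf4.

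Complex V makes ATP. Its 16 members had a median difference of 0.27, and 15 were above 0. Atp5b, the catalytic beta subunit, read 11.64 in wild type and 11.78 in TLR4-/- untreated, and 12.25 and 12.32 at day 4, and rose by 0.58 ± 0.15 (SE), or 1.49-fold, with a limma adjusted p of 0.0418. Atp5pb, the b subunit of the peripheral stalk, read 10.93 and 11.03 untreated and 11.54 on both day 4 arrays, and rose by 0.56 ± 0.15 (limma adjusted p 0.0458). In both genes the genotypes lay close together and both bleomycin arrays were above both untreated ones.

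Atp5g3, one of the genes for the c subunit of the membrane ring, was higher by 0.48 and missed the threshold (adjusted p 0.0806), and Atp5g1, which encodes the same mature protein, was higher by 0.23 (adjusted p 0.420). The value of Atp5g1 averages a probe set of mean 10.96, at 0.53, and a dim one of mean 6.05, at -0.07. Atp5a1, the alpha subunit, was higher by 0.04 (adjusted p 0.913), with 0.17 in wild type and -0.08 in TLR4-/-. Atp5j2, a subunit of the membrane part, was the only member of complex V below 0, at -0.07, but its probe sets of mean 12.11 and 11.70 were at 0.13 and 0.10, and only the one of mean 5.07 was below 0, at -0.43. Atp5e, the epsilon subunit and the brightest of the complex, was higher by 0.17 (adjusted p 0.573).

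Assembly factors help build complex I and are not part of it. All 6 were above 0, with a median of 0.37, and 2 rose. Ndufaf4 read 7.59 in wild type and 8.26 in TLR4-/- untreated, and 8.62 and 8.58 at day 4, and rose by 0.68 ± 0.19 (SE; limma adjusted p 0.0481), with 1.03 in wild type and 0.32 in TLR4-/-. Ndufaf5, which modifies the core subunit Ndufs7, read 7.80 and 7.98 untreated and 8.36 and 8.53 at day 4, and rose by 0.56 ± 0.15 (limma adjusted p 0.0463). The other 2 genes of the symbol rule that are not subunits of a single complex were lower in both genotypes and were not called. These were Cox7a2l, which joins complexes into supercomplexes (-0.20), and Ndufa4l2 (-0.27), a hypoxia-linked relative of Ndufa4, itself at 0.17.

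**Figure D4:**
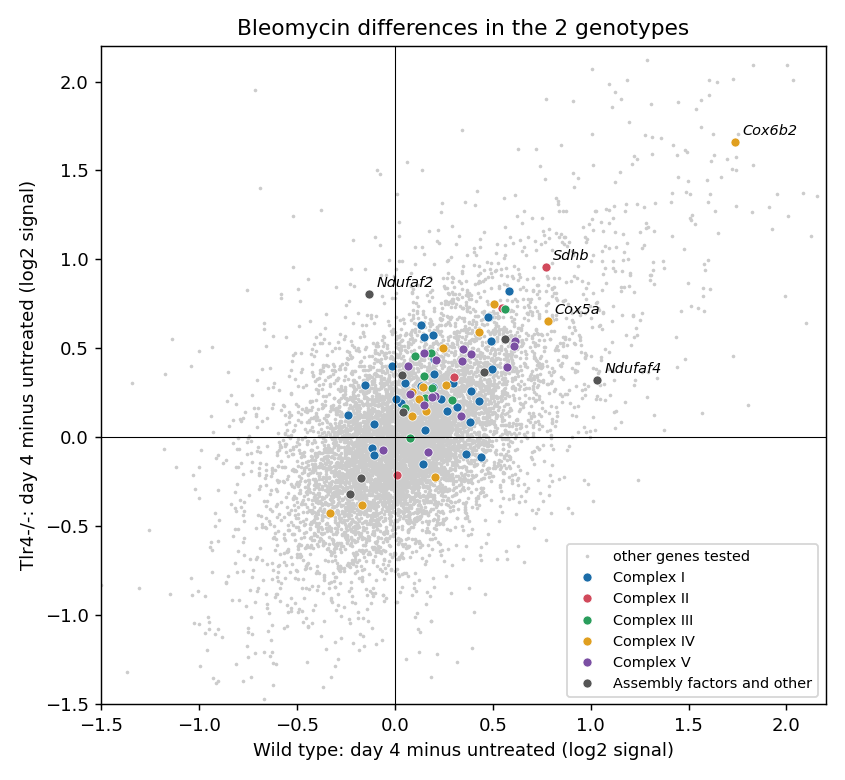
Each point is a gene, with the wild-type bleomycin difference (log2) on the x axis and the TLR4-/- difference on the y axis. Grey points are all genes tested, coloured points the members, and genes beyond the axis limits are not drawn. Of the 84 members, 65 lie in the quadrant above 0 in both genotypes.

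Fold changes between single arrays were counted as well. After bleomycin, 7 members were higher past 1.5-fold in wild type, near the 8.42% of all genes, and none was lower, against 2.72%. In TLR4-/- 12 were higher, against 7.99%, and none was lower, against 5.07%. The difference between the responses of the genotypes passed 1.5-fold upwards in 1 member (Ndufaf2), against 4.05% of all genes, and downwards in 1 (Ndufaf4), against 6.56%. Past 2-fold, 2 members were higher after bleomycin in wild type (Cox6b2 and Ndufaf4), against 2.52% of all genes, and 1 in TLR4-/- (Cox6b2), against 2.46%. No member was lower past 2-fold in wild type, against 0.302%, or in TLR4-/-, against 0.884%, and none differed past 2-fold in response, against 0.668% higher and 0.862% lower. The response of TLR4-/- was above that of wild type in 53 members, against 40.9% of all genes. These counts carry no test.

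Genotype differences were small. The limma fit called no member and no gene for TLR4-/- against wild type, the smallest adjusted p being 0.334 among members and 0.219 among all genes. At an unadjusted p under 0.05, 2 members were higher, against 7.08% of all genes, and 0 lower, against 1.74%. These were Cox6b2, higher in TLR4-/- by 0.58 ± 0.15 (SE; limma adjusted p 0.334), and Cox7a1, by 0.56 ± 0.16 (limma adjusted p 0.347), each higher in 2 of 2 treatments. Both TLR4-/- arrays were above both wild-type arrays in 16 members (19.0%), against 17.1% of all genes, a share near the background, and below in 1, against 9.34%.

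Untreated, the members were higher in TLR4-/- by a median of 0.10, against 0.08 over all genes, with 66 members above 0 (78.6%), against 62.1%. The untreated values depended on the array scaling. With quantile normalization the median was 0.04, against 0.03, with 53 members above 0, and with the arrays centred on their medians 0.14, against 0.12, with 71. At day 4, in the values as deposited, the median was 0.18, against 0.02 over all genes, and 71 members were above 0 (84.5%), against 53.2%. With quantile normalization the day 4 median was 0.18, against 0.00, with 70 above 0. For the 57 brighter members it was 0.21, with 54 above 0, against 0.00 over the brighter genes. The day 4 medians were 0.21 in complex I, 0.18 in complex II, 0.26 in complex III with all 9 above 0, 0.16 in complex IV and 0.12 in complex V. The median macrophage and leukocyte marker was also higher on that array, by 0.38, and its part was not tested. Single members passed 1.5-fold rarely: 3 untreated, against 5.54% of all genes, and 1 at day 4, against 1.51%, with none lower, against 1.93% and 0.604%. None passed 2-fold untreated, against 0.776% of all genes higher and 0.345% lower, or at day 4, against 0.0431% higher and 0.0539% lower.

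**Figure D5:**
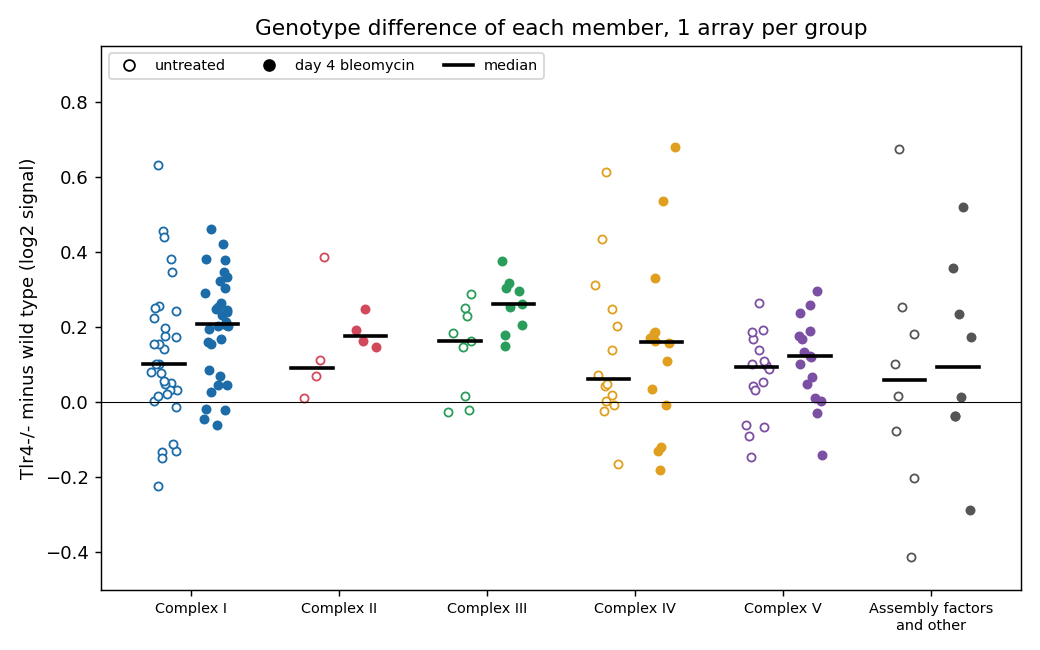
Points are members, and the y axis is the log2 signal of TLR4-/- minus wild type, open for untreated cells and filled for day 4 after bleomycin. Lines are medians. The day 4 medians of complexes I to V run from 0.12 to 0.26 and each lies above the untreated median of its complex.

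The untreated differences were highest in Ndufaf4 (0.68), Ndufs8 (0.63), Cox6b2 (0.61), Ndufv1 (0.46) and Ndufs1 (0.44), of which 3 are core subunits of complex I. They were lowest in Ndufaf2 (-0.41), Ndufb9 (-0.22), Ndufa4l2 (-0.20), Cox8a (-0.16) and Ndufs5 (-0.15). The sign of Ndufb9 and Cox8a came from a dim probe set each, at -0.82 and -0.67, while their bright probe sets were at 0.05 and 0.09 (Ndufb9) and 0.07 and 0.11 (Cox8a). At day 4 the highest were Cox7a1 (0.68), Cox6b2 (0.54), Ndufaf2 (0.52), Ndufa1 (0.46) and Ndufs7 (0.42). The lowest were Ndufa4l2 (-0.29), Cox8b (-0.18), Atp5a1 (-0.14), Cox8a (-0.13) and Cox4i2 (-0.12).

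The response of TLR4-/- exceeded that of wild type most in Ndufaf2 (0.93), Ndufa3 (0.49), Ndufa1 (0.44), Ndufb9 (0.42) and Ndufs5 (0.41). It fell short most in Ndufaf4 (-0.71), Ndufs8 (-0.55), Ndufs1 (-0.46), Cox8b (-0.43) and Ndufv1 (-0.30). The value of Ndufb9, an accessory subunit, came from its dim probe set, of mean 6.12, which differed between the responses by 1.38, while its probe sets of mean 11.47 and 11.36 differed by -0.01 and -0.12. In those bright probe sets Ndufb9 was higher after bleomycin by 0.63 and 0.47, against 0.19 for the average of all 3. Ndufab1 differed between the responses by 0.38 on the average of its probe sets. Its probe sets of mean 11.06 and 10.60 differed by 0.71 and 0.75, and its dim ones by -0.23 to 0.66.

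Probe sets of a gene disagreed in sign past the 0.23 spread in 4 of the 48 members with several, and in 1 of them when probe sets under a mean of 7 were set aside. In Ndufa12, an accessory subunit, the 3 bright probe sets were higher by 0.40 to 0.44, and a dim one with a mean of 7.03 was at -0.42. Ndufs4, another accessory subunit, had probe sets at 0.36 and 0.84 with means of 10.29 and 8.93, and dim ones at -0.58 and 0.65. Averaging with dim probe sets thus left all 4 of these genes (Ndufa12, Ndufb9, Ndufs4 and Uqcrq) with a smaller difference than their bright probe sets showed. The average of Ndufs4 was 0.32. An alternative chosen after seeing the data took the average over probe sets of mean 7 or more alone. The median bleomycin difference of the 84 members was then 0.25, with 74 above 0, against 55.5% of all genes averaged that way. The sign turned in 2, Sdha and Atp5j2. The untreated genotype difference turned in 2 as well, Ndufb9 and Cox8a.

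The level rule works on the average of a gene's probe sets, so a gene can lie near it through dim probe sets beside a bright one. Just inside it were Cox8b (mean log2 signal 7.01), Ndufb1 (7.08), Uqcrq (7.27), Cox7a1 (7.34) and Ndufab1 (7.84), of which Uqcrq has a probe set of mean 11.51 and Ndufab1 has one of 11.06 and one of 10.60. Just outside were Ndufaf6 (6.75), Atp5g2 (6.64), Ndufb4 (6.57), Ndufaf1 (6.15) and Cox7c (5.75), of which Atp5g2 has a probe set of mean 11.30, followed by the testis isoforms Cox8c (5.44) and Cox7b2 (3.95). Ndufb4 on its own probe set was lower by 0.72 in wild type and 0.78 in TLR4-/-, but the 2 brighter probe sets it shares with Ndufb4b and Ndufb4c were higher by 0.17 to 0.29.

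Genes around the complexes moved less evenly. Of the mitochondrially encoded subunits, ND5 alone was on the array under a listed name, and its signal was higher by 0.02. Other complex I assembly genes had a median of 0.40, and 1 of 7 rose, Ecsit (0.60 ± 0.17 (SE), limma adjusted p 0.0479), while Timmdc1 was at 0.57 (adjusted p 0.0502). No assembly gene of complexes II and III (8 tested, median 0.11), IV (18, median 0.14) or V (6, median 0.12) was called in either direction. At an unadjusted p under 0.05, Sdhaf1, Higd2a and Tmem242 were higher among them and Higd1a was lower. Surf1, needed for complex IV, was at 0.45 (adjusted p 0.216).

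Among 14 electron carriers and coenzyme Q genes, with a median of 0.18, Coq7 and Coq10b rose and none fell. Coq7, a hydroxylase of coenzyme Q synthesis, read 8.76 in wild type and 9.22 in TLR4-/- untreated, and 9.77 and 10.21 at day 4, a rise of 0.997 ± 0.15 (limma adjusted p 0.00238). Coq10b rose by 0.76, and Cycs, the gene of cytochrome c, was higher by 0.45 and was not called (adjusted p 0.0972). Of 7 ADP, ATP and phosphate carriers and channels, with a median of 0.28, 2 rose: Ckmt1, the mitochondrial creatine kinase, by 1.11 ± 0.15 (limma adjusted p 0.00131), and Vdac2, an outer membrane channel, by 0.56. Of 17 genes of the citric acid cycle and pyruvate entry, with a median of 0.09, 1 rose, Mdh2, by 0.56 (limma adjusted p 0.0458).

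Regulators of mitochondrial biogenesis had a median of -0.08 over 16 tested, below the 0.04 of all genes, with 1 up and 1 down. Pprc1, a coactivator related to PGC-1, rose by 0.80 (limma adjusted p 0.00919). Polg2, the accessory subunit of the mitochondrial DNA polymerase, fell by 0.93 (limma adjusted p 0.00360). Nrf1 was at 0.01, Gabpa at -0.38 and Yy1 at -0.41, none of them called. Ppargc1a, which encodes PGC-1 alpha, was higher by 0.30 and was not called (adjusted p 0.318).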

How the data were processed

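Per the labels' protocols, RNA was extracted with Trizol, amplified with Ovation Pico WT Amp V2 and labelled with the Encore Biotin Module. The table holds 45101 probe sets. Its values are log2 signals that the authors summarised per probe set before they were deposited, as read from the range of the values; the software and normalization are not given in the sources used here. Symbols came from GEO's platform annotation; 34958 probe sets with 1 symbol were averaged per gene, 932 with several and 9211 without were left out. Genes with a mean of at least 7 were fitted with limma 3.58.1 (R 4.3.3; lmFit and eBayes, additive treatment and genotype, 1 residual degree of freedom), Benjamini-Hochberg adjusted, called at 0.05; the fit was tested on simulated data. With 1 array per group, p-values do not measure the spread between replicate pools. Single-array differences were counted past 1.5-fold. The members and lists were chosen with earlier results of these data known. Genes are named by rule: called members, the extremes and brightest of each complex, genotype extremes, genes next to the level rule, isoform pairs, disagreeing probe sets, and large differences of related lists; Nrf1, Gabpa, Ppargc1a, Atp5g1, Kmt5c, Eif2s3y and Xist were added after their values were seen. Alternatives changed the filter, probe sets, scaling, prior, threshold, arrays and member definition. Precision is limited by the number of arrays. The YY1 core was searched after a longer form of that motif had been counted.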

Additional observations from a re-analysis of the deposited data

Results flagged for a closer look

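Ndufaf2, a late-acting assembly factor of complex I, differed between the genotypes in opposite directions: TLR4-/- minus wild type was -0.41 untreated and 0.52 at day 4 (log2). Its arrays read 9.66 in wild type and 9.25 in TLR4-/- untreated, and 9.53 and 10.05 at day 4. With 1 array per group the difference was not tested.

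Some probe sets outside the members were also higher after bleomycin and others were lower, as the mean over the genotypes on the log2 scale. Those annotated to a gene and a near-identical copy, whose signals cannot be told apart, gave 0.59 for Ndufa11 with Ndufa11b, 0.48 for Ndufs6 with Ndufs6b and 0.93 for Ndufab1 with its pseudogene. Among probe sets of several symbols, a dimmer one of Ndufa11 with Ndufa11b gave -0.15, and those of Ndufa13 with Yjefn3 gave -0.07 and -0.09. Below the level rule, Ndufaf1 gave 0.74 and Cox7c 0.29, while Ndufb4 gave -0.75 on its own probe set. Cox8c was at -0.16 in wild type and -0.19 in TLR4-/-, and Cox7b2 at -0.12 and -0.13.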

How the results depend on the processing

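Of 124 recomputed counts of members, 101 stayed within 1.5 times the reported one, 19 were lower and 4 higher. The 13 members that rose became 2 with no filter, 2 with the probe set of highest mean, 4 with median centring, 5 with quantile normalization, 20 with a trended, robust prior and 2 at an adjusted p under 0.01; leaving out 1 array together with the genotype term, since 3 arrays cannot hold both, gave 0 to 10. Quantile normalization gave 4 members higher past 1.5-fold in wild type and 1 higher in untreated TLR4-/-. At 2-fold, 2 were higher after bleomycin in wild type and 1 in TLR4-/-, and 0 between genotypes in untreated cells, at day 4 and in response, in either direction. Without probe sets ending in _x_at, _s_at or _a_at, 1 member was lower past 1.5-fold in TLR4-/- and 2 responded more there; the probe set of highest mean gave 2 more and 0 less, and structural subunits alone 0 and 0. Without the treatment term as well, so that genotype is mixed with treatment, the members' median genotype difference, 0.12, ran from -0.0094 without the TLR4-/- day 4 array to 0.31 without the TLR4-/- untreated array. Both bleomycin arrays lay above both untreated ones for 48 to 58 of 84 members, against 27.0% to 30.7% of all genes. Without those suffixes this held for 37 of 66, against 27.9%. These were alternatives chosen after seeing the data. The reported fit already compares the treatments within genotype; the labels carry no replicate numbers for another pairing. Signals near the level rule limit the dim members.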
